A study of Mus musculus
Mus spretus with 18 samples.

Results

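Histones package DNA, and their genes fall into families that differ in how the mRNAs are made. The replication-dependent genes, named Hist here, lie in clusters, lack introns as a rule, and are read during S phase into mRNAs that end in a stem-loop in place of a poly(A) tail. The replacement genes H2af and H3f3 encode variants that are used throughout the cell cycle. These are H2A.Z (H2afz and H2afv), H2A.X (H2afx), H2A.J (H2afj), macroH2A (H2afy and H2afy2) and H3.3 (H3f3a and H3f3b). As a rule such genes carry introns and end in a poly(A) tail, but no exon or intron was listed here for H2afx or H2afj. The members were all genes of the expression table whose symbol begins with Hist1h to Hist4h, H2af or H3f3, which gave 86 of 38924 genes, 70 Hist and 16 H2af or H3f3 genes. By name the Hist members were 6 H1, 20 H2A, 19 H2B, 12 H3 and 13 H4 genes.

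All 18 libraries came from F1 hybrids of the inbred mouse strains C57BL/6J and SPRET/EiJ, and each of the 9 groups had 2 libraries. Cerebral cortex, heart, kidney, lung, spleen and liver were taken from female animals aged 8 weeks. The organs came from 2 animals, so the organ libraries share donors, and the labels of the liver libraries, which came from an earlier study, give the maternal strain as C57BL/7J and C57BL/8J. The embryonic stem cells (ESC), labelled C57BL/6J x SPRET/EiJ, were 2 independent clones kept in N2B27 medium with 2i and LIF. Fibroblasts of the same cross were given DMSO or 0.1 µM pladienolide B, an inhibitor of the SF3B complex of the spliceosome, for 4 h, and nothing in the labels says that their replicates were separate cultures, so p-values for them may measure technical spread.

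Levels are in TPM, a unit that scales reads by gene length and to the same total in every library, and that keeps no depth. The exon tables, which count reads over splice junctions, held between 45055286 and 128494506 reads for each tissue library and between 121091735 and 144154268 for each fibroblast library. Summed marker genes were higher in both libraries of their own tissue than in any other library for cortex, heart, kidney, lung, lymphocytes of spleen, liver, ESC and fibroblasts. The erythroid markers did not separate spleen, where they summed to 338 and 1301 TPM, from lung at 688 and 488 TPM. The kit is described as a stranded mRNA protocol with no more said of how mRNA was selected. A selection for poly(A) tails would lose stem-loop mRNAs, and its part in the low Hist levels below was not tested.

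Most Hist genes were hardly detected. Of the 70 Hist members, 22 stayed under 1 TPM in every library, 23 had a mean of at least 1 TPM over the 18 libraries, and 8 exceeded 10 TPM in any library, whereas 11 of the 16 H2af and H3f3 members had a mean of at least 1 TPM. The remaining 5 of those, H2afb1, H2afb2, H2afb3, H2afy3 and H2af-ps, were at or near 0 in most libraries, with H2afb1 at 0.572 and 1.48 TPM in ESC and H2af-ps at 0.286 and 0.408 TPM in cortex. In total 2 members were at 0 in every library. RefSeq entries on GRCm38.p6, the build that the files call mm10, matched 84 of the 86 members. Among Hist members these entries class Hist1h2al (matched to H2af-ps2), Hist3h2bb-ps and Hist1h2aj as pseudogenes, so the classes by name are not all protein-coding genes.

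A pair of genes carried much of the Hist signal. Hist1h2bc, an H2B gene at chr13:23684199-23692480 whose annotated span is longer than that of a single histone exon, and Hist1h1c, a gene of linker histone H1 at chr13:23738807-23739531, together made up 40.7 to 82.6% of the summed Hist TPM in organs, 42.1 and 47.3% in ESC, and 73.7 to 75.6% in fibroblasts. Hist1h2bc was highest in kidney, at 253 and 295 TPM, and liver, at 230 and 203 TPM, and lowest in ESC, at 23.1 and 13.0 TPM. Among tissues Hist1h1c was highest in kidney, at 158 and 178 TPM, and likewise lowest in ESC, at 19.1 and 12.4 TPM. In fibroblasts it stood at 263 and 240 TPM with DMSO and at 205 and 200.2 TPM with pladienolide B. The neighbours in the Hist1h1c order, lung at 79.6 and 69.8 TPM, liver at 64.4 and 59.2 TPM and spleen at 59.4 and 56.9 TPM, lay close together.

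Some less abundant Hist genes were concentrated in 1 tissue. Hist3h2ba, an H2B gene at chr11:58948911-58949372, reached 34.5 and 40.8 TPM in cortex, against 5.53 and 6.43 TPM in spleen, at most 2.00 TPM in the other tissue libraries, and was listed at 0 in all 4 fibroblast libraries. Its neighbour Hist3h2a, an H2A gene at chr11:58954685-58955192, was also highest in cortex, at 30.1 and 32.3 TPM, but stood at 16.7 and 17.7 TPM in lung and 15.5 and 16.3 TPM in kidney. Hist1h4h, an H4 gene, was highest in heart, at 14.4 and 13.2 TPM, and Hist1h4i, another H4 gene, was at 14 and 18.1 TPM in spleen and at most 8.71 TPM in the other tissue libraries. Copies of a histone gene can be nearly identical and the alignment kept up to 2 places per read, so values for single Hist genes are uncertain where reads fit several copies.

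**Figure D1:**
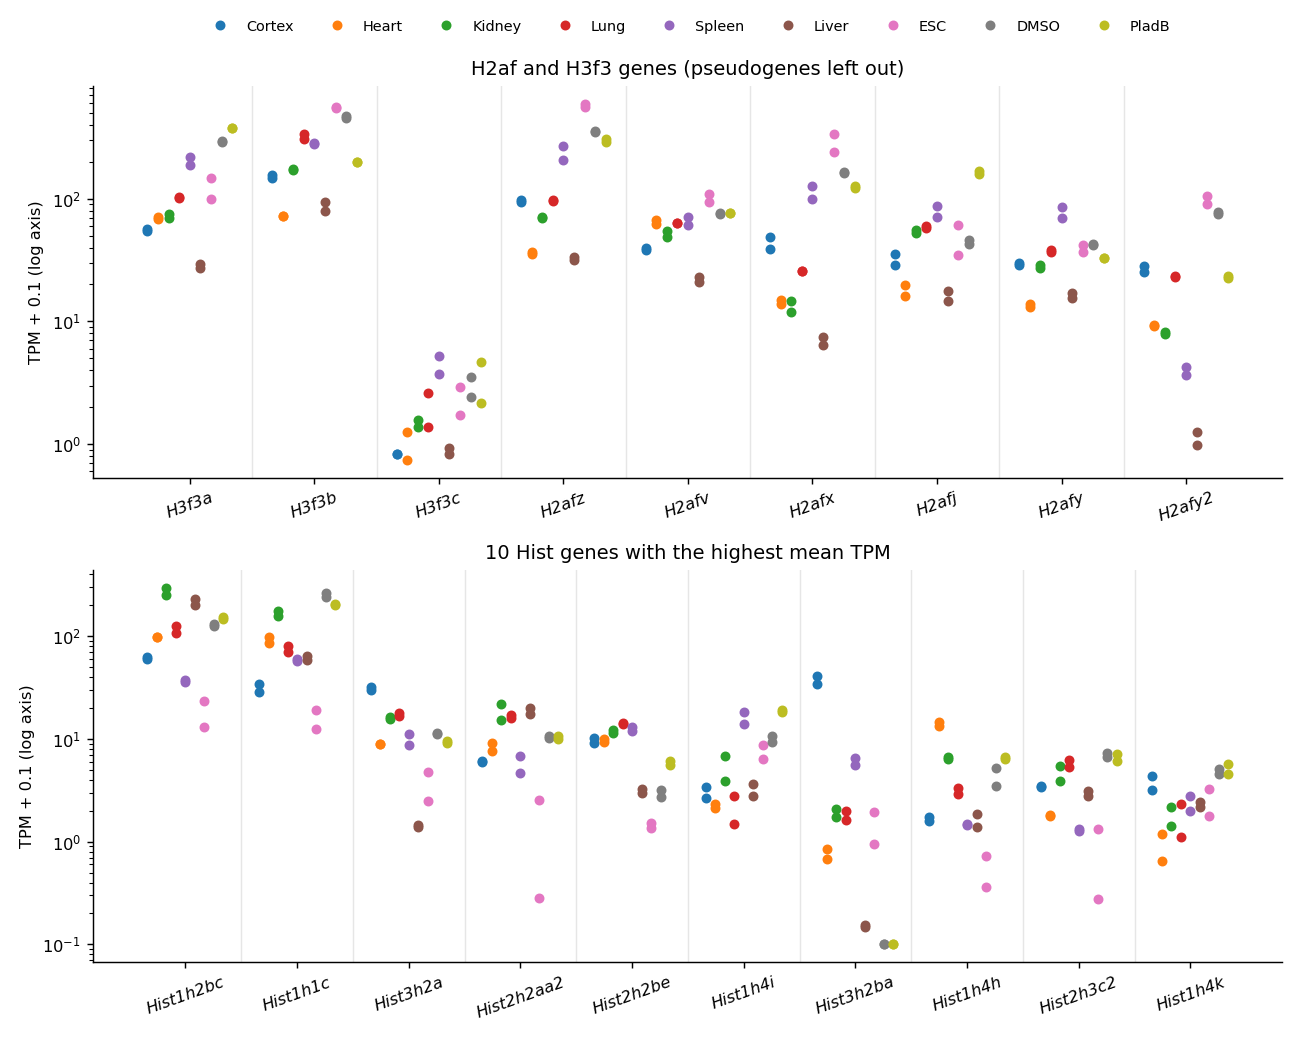
TPM + 0.1 on a log axis for each of the 18 libraries (points, coloured by group, 2 per group). The H2af and H3f3 genes (top) are highest in ESC, spleen or fibroblasts, whereas Hist1h2bc and Hist1h1c (bottom) are lowest in ESC, and Hist3h2ba stands apart in cortex.

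H3f3a and H3f3b encode the same H3.3 protein from different genes. H3f3b, at chr11:116021961-116026039, ran from 72.1 and 72.0 TPM in heart and 94.1 and 78.8 TPM in liver to 549 and 559 TPM in ESC. H3f3a, at chr1:180802560-180813605, was lowest in liver, at 29.0 and 27.3 TPM, and among tissues highest in spleen, at 220 and 188 TPM. The ratio of H3f3b to H3f3a was therefore near 1 in heart, at 1.06 and 1.02, and reached 5.53 and 3.82 in ESC. The processed copies H3f3a-ps1 and H3f3a-ps2 cannot be told apart from H3f3a with certainty: the ratio of H3f3a-ps2 to H3f3a was 0.592 to 0.825 in organs and 0.236 to 0.263 in fibroblasts, whose tables also have longer effective read lengths (149 against 75 positions for a single junction). Fibroblast and tissue levels were for this reason not tested against each other.

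Among the 6 organs, 32 of the 33 members with a mean of at least 1 TPM over the tissue libraries differed (limma F test on log2(TPM + 0.1), Benjamini-Hochberg adjusted p under 0.05), and so did 98.2% of all 19138 genes tested, so the count says little about histones. The median distance between the highest and the lowest organ was 2.53 on the log2 scale for members and 3.65 for all genes.

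Among members with a mean of at least 1 TPM over the tissue libraries, ESC and organs differed in opposite directions for the 2 families. Of 22 Hist members tested, 19 were lower in ESC than in the mean of the organs and 1 was higher. Of 11 H2af and H3f3 members 9 were higher and none was lower. Most tissue libraries are organs, so this filter favours Hist genes that are high in organs, and the split covers tested members only. Untested Hist genes, all with a mean under 1 TPM over the tissue libraries, went both ways. More of them had a higher mean TPM in ESC than over the organs than had a lower one, so the direction of the tested Hist members cannot be taken for the whole family. Hist1h3g had a mean of 0.797 TPM in ESC and at most 0.364 TPM in any organ. Hist1h2bf had 0.162 TPM in ESC and at least 0.219 TPM in every organ. Over all 19138 genes, 84.1% were called, 34.3% lower and 49.8% higher, with a median log2 fold change of 0.36. The median was -2.06 for the Hist members and 0.83 for the H2af and H3f3 members. After each library was scaled to a common median of its genes, the median of all genes was -0.16, and 19 Hist members were still lower (45.5% of all genes) while 6 members, all of them H2af or H3f3, were higher (38.7% of all genes).

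Of the variants, H2afy2, macroH2A2 at chr10:61738640-61784604, differed most. It was at 105 and 91.1 TPM in ESC, above every organ library, where the values ran from 0.874 TPM in liver to 27.9 TPM in cortex (log2 fold change 3.68 ± 0.11, SE; limma adjusted p = 9.8e-10). H2afx, the variant phosphorylated at DNA breaks, at chr9:44334715-44336077, was at 239 and 339 TPM in ESC, 99.7 and 126 TPM in spleen and 6.27 to 48.4 TPM in the other organs. Its log2 fold change was 3.6 ± 0.15 (adjusted p = 7.4e-09). H2afz, at chr3:137864487-137866922, was at 559 and 597 TPM in ESC and at most 268 TPM in any organ, with a log2 fold change of 2.94 ± 0.08 (adjusted p = 8.7e-10). Its close relative H2afv, which also encodes an H2A.Z, rose less, by 1.09 ± 0.08 (adjusted p = 5.3e-07), so that the ratio of H2afz to H2afv was 5.95 and 5.50 in ESC and 0.554 and 0.570 in heart.

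H3f3b was higher in ESC by 1.82 ± 0.07 on the log2 scale (adjusted p = 5.2e-09), and its ESC values lay above all organ values. For H3f3a the difference was 0.70 ± 0.12 (adjusted p = 0.00026), with ESC at 99.3 and 146 TPM inside the organ range. It was 0.18 after median scaling and then not called (adjusted p = 0.20), and it was 0.43 without the second ESC library. H3f3a-ps2 (0.73) and H3f3a-ps1 (0.83) followed H3f3a and can hold its reads, and H3f3a-ps2 likewise fell short of the threshold after scaling, at 0.21. H2afy, macroH2A1, was higher by 0.46 ± 0.08 (adjusted p = 0.00045), a difference that turned to -0.06 under median scaling. H2afj (0.34) and H3f3c (0.64) were not called.

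Among the Hist genes, Hist2h2be, an H2B gene at chr3:96221072-96223738, was at 1.43 and 1.27 TPM in ESC and 2.90 to 14.2 TPM in organs, and it was lower by 2.67 ± 0.09 on the log2 scale (adjusted p = 3.1e-09). Hist1h2bc was lower by 2.62 ± 0.16 (adjusted p = 1.6e-07) and Hist1h1c by 2.20 ± 0.14 (adjusted p = 1.8e-07), with no ESC library reaching any organ library for any of these 3 genes. The ESC clones differed from each other for several low genes: Hist2h2aa2, an H2A gene, was at 2.43 TPM in one and 0.184 TPM in the other. Its log2 fold change of -3.68 was -2.10 without the second clone, and that of Hist2h3c2, an H3 gene, moved from -2.28 to -1.15. Hist2h2aa1 (-2.64), Hist1h4h (-2.64) and Hist2h2ab (-2.43) were also lower, and Hist3h2a was lower (-1.55) with overlapping libraries.

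The H4 gene Hist1h4i was the single tested Hist member called higher in ESC (0.94 ± 0.27, adjusted p = 0.0089). It was not called after scaling (0.42, adjusted p = 0.18) or without the first clone (0.70). Hist1h4k was not called (0.32). The call for Hist3h2ba (-0.64) was lost without the second clone (-0.11, adjusted p = 0.59), and its value was -1.17 without the first clone and -1.40 without the liver, where it was at 0.0488 and 0.0556 TPM.

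**Figure D2:**
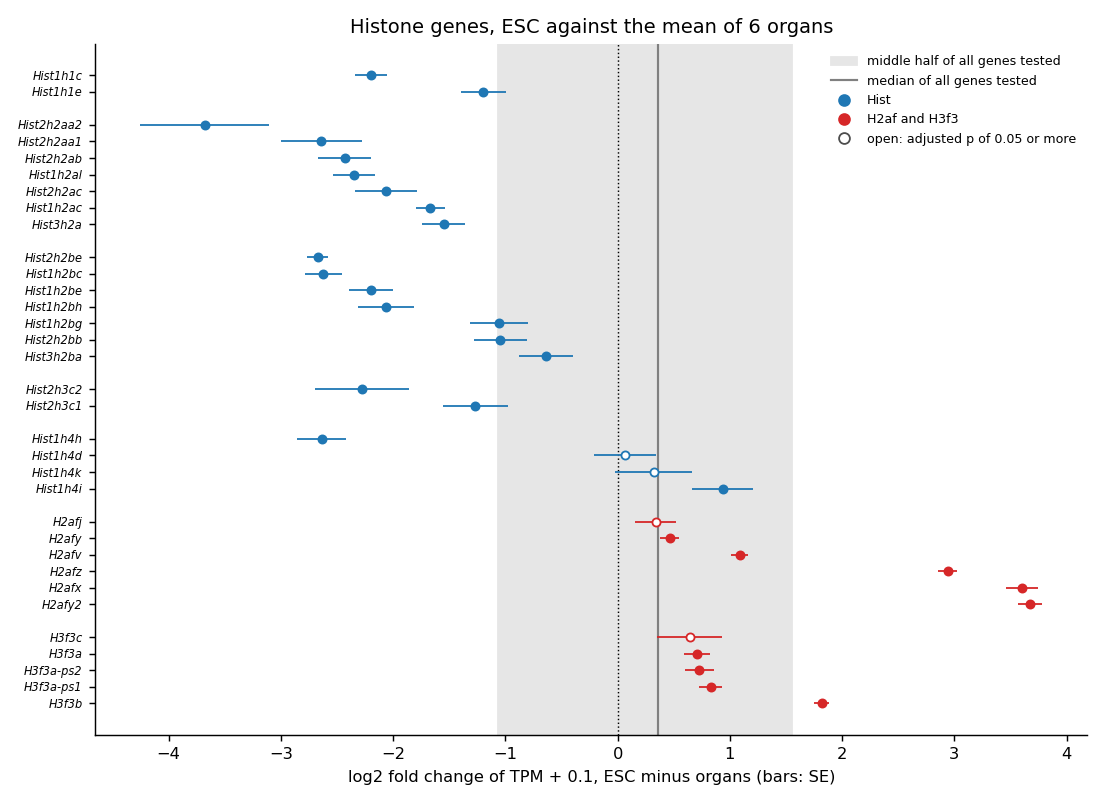
Log2 fold change of TPM + 0.1, ESC minus the mean of 6 organs, for the 33 members tested (points; bars are SE; open points had an adjusted p of 0.05 or more), with the median of all genes. Of the Hist genes 19 of 22 lie below 0 and were called, whereas the 11 H2af and H3f3 genes lie above 0, although H2afy and H2afj turn to -0.06 and -0.18 after median scaling.

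Dividing cells need S phase genes, and 20 genes of DNA replication and mitosis, among them Mki67, Top2a and Pcna, were set beside the members. They summed to 2625 and 4523 TPM in ESC, 882 and 1648 TPM in spleen and 60.5 to 253 TPM in the other organs. All 20 were higher in ESC and all 20 in spleen, beside 49.8% and 48.4% of all genes. They were led by Ccnb1 (log2 fold change 7.47), Top2a (6.61) and Cdk1 (6.28) in ESC. Over the 7 tissues, Spearman's rho between a member's mean log2 level and that of this sum was above 0 for all 11 H2af and H3f3 members, with a median of 0.857, and highest for H2afz, at 0.964. It was above 0 for 8 and below 0 for 14 of the 22 Hist members, with a median of -0.232. Each rho rests on 7 tissue means that share libraries, TPM scaling and cell composition, and is a description. It was not computed for all genes or on median-scaled values, so how common such values are among all genes is not known here. The members it covers passed the same filter as above.

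The genes that handle histone mRNA and protein were also set beside the members. Of 14 tested genes of histone mRNA processing and transcription, 14 were higher in ESC, led by Casp8ap2 (2.73), Npat (2.51) and Slbp (2.08), whose product binds the stem-loop. Of 16 tested histone chaperones 15 were higher, led by the CAF-1 subunits Chaf1b (5.74) and Chaf1a (4.69) and by Asf1b (4.32). Over all genes 49.8% were called higher. After median scaling the median log2 fold change was 0.85 for the processing list and 2.00 for the chaperones, against -0.16 for all genes. Lsm10 (-0.09) and Ncbp2 (0.05) were then not called, and the chaperone gene Ubn1 was lower (-0.60). Outside the name rule, Cenpa, the centromeric H3 variant, was higher by 3.90 and H1fx by 2.93, while H1f0, a linker histone of resting cells, was lower (-0.28).

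In spleen, an organ with many dividing blood cells, most tested H2af and H3f3 members were higher than in the other 5 organs. Tested Hist members differed in both directions. Of 11 H2af and H3f3 members 10 were higher and 1 lower, and of 22 Hist members 6 were higher and 10 lower. Over all genes 79.8% were called, 48.4% higher and 31.4% lower, with a median of 0.32. After median scaling, which moved the median of all genes to -0.17, 12 members were higher (34.8% of all genes) and 15 lower (44.2% of all genes). By family, 3 Hist members were then higher and 14 lower, and 9 H2af and H3f3 members were higher and 1 lower. In whole organs, fewer cells of a type and less RNA per cell cannot be told apart. The members tested passed the same filter as for ESC. Many untested Hist genes had their highest organ mean in spleen, and others had it elsewhere. Hist1h4m had a mean of 2.05 TPM in spleen and at most 0.366 TPM in any other organ, whereas Hist1h2bf, at 0.219 TPM, was lowest in spleen. The comparisons of ESC and of spleen use the same 5 organs, so their values are not independent.

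H2afx was higher in spleen by 2.71 ± 0.15 (adjusted p = 1.0e-07) and H2afz by 1.97 ± 0.09 (adjusted p = 2.7e-08), and both spleen values of each lay above those of all other organs. H3f3a (1.75 ± 0.12), H2afy (1.75 ± 0.08) and H2afj (1.34 ± 0.19) were higher without overlap, with H2afy at 86.2 and 70.2 TPM in spleen and 13.0 to 38.1 TPM elsewhere. H3f3b was higher by 1.02 ± 0.07, but its 286 and 281 TPM lay below the 338 and 308 TPM of lung. H3f3a-ps2 (1.91), H3f3a-ps1 (1.72) and H3f3c (1.95) were higher as well, and H2afv was higher by 0.57 and at 0.07 after scaling. The variant that was lower was H2afy2, at 4.12 and 3.55 TPM in spleen (-1.15 ± 0.11, adjusted p = 4.8e-06, and -1.90 without the liver, the organ below it).

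Hist1h4i had the largest Hist difference upward in spleen, 2.44 ± 0.28 (adjusted p = 1.8e-05), followed by Hist3h2ba (1.83) and Hist1h4d (1.75). The value for Hist3h2ba is a difference of mean logs, and its mean TPM, 5.98 in spleen and 8.38 in the other organs, runs the other way because of cortex. Smaller differences upward were those of Hist2h2ac (1.02), Hist2h2bb (0.73) and Hist2h2be (0.52), and Hist2h2bb and Hist2h2be were at 0.33 and 0.15 and not called without the liver libraries. The call for Hist2h2bb was also lost without either spleen library, and that for Hist2h2ac without the second (0.87).

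Hist1h2bc was lower in spleen by 1.86 ± 0.17 (adjusted p = 3.3e-06), and its 37.7 and 35.7 TPM lay below every other organ library. Hist2h3c2 (-1.41), Hist1h4h (-1.36), Hist1h2al (-1.35), Hist2h2aa1 (-1.11) and Hist2h3c1 (-0.91) were lower too, but the calls for Hist2h3c2, Hist2h2aa1 and Hist2h3c1 were lost when either spleen library was left out. Hist1h1c was lower (-0.35) with a limma adjusted p of 0.046, and lost its call in 9 of the 14 fits that left out 1 library. Hist2h2aa2 (-1.13), Hist1h4k (0.35) and Hist3h2a (-0.03) were not called.

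With pladienolide B most genes of the fibroblasts had a lower TPM, and most histone genes lay above the typical change. These are relative levels, since TPM have a fixed total. Over all 13221 genes with a mean of at least 1 TPM, 88.9% were called, 73.1% lower and 15.8% higher than with DMSO, and the median log2 fold change was -1.13. Of 41 members tested, 15 were lower and 10 higher, with a median of -0.07, and 35 of the 41 lay above the median of all genes. After median scaling 32 members were higher and 3 lower, against 44.2% and 44.2% of all genes. Every change below is therefore given on the TPM scale, on which a gene with the median response stands at -1.13.

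The 30 Hist members tested had a median log2 fold change of -0.08 (6 higher, 10 lower) and the 11 H2af and H3f3 members one of 0.01 (4 higher, 5 lower). Not every tested Hist gene has the span of a single histone exon, since those of Hist1h2bc and Hist1h2be are 8282 and 37455 bp. The H2af and H3f3 family cannot be taken as all intron-bearing, since it holds processed copies and other genes with no exon or intron listed. Its 6 genes with exons or introns listed in the fibroblast splicing tables had a median of -0.30 (1 higher, 4 lower), and the 5 without (H2afj, H2afx, H3f3c, H3f3a-ps1 and H3f3a-ps2) one of 0.46 (3 higher, 1 lower). As a background, other genes with an annotated span of up to 2 kb had a median of 0.28, with 45.1% higher and 29.0% lower, those of 2 to 10 kb a median of -0.45, those of 10 to 50 kb one of -1.45, and longer genes one of -1.75. Of the 1178 other genes of up to 2 kb, 983 lay above the median of all genes, beside 35 of the 41 members, so this position is common among short genes. Spans were matched for 95.5% of the genes tested.

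**Figure D3:**
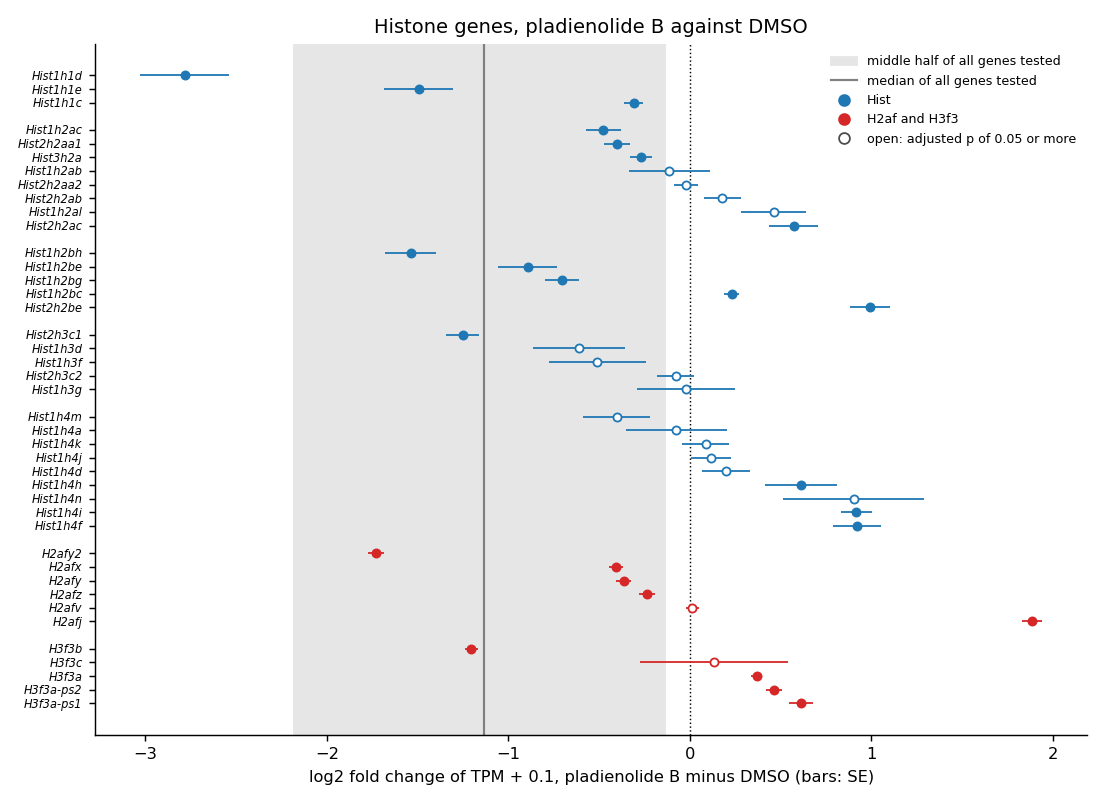
Log2 fold change of TPM + 0.1, pladienolide B minus DMSO, for the 41 members tested, grouped by histone class (points; bars are SE; open points had an adjusted p of 0.05 or more), with the median of all genes (-1.13). Most members lie to the right of the median of all genes, H2afj farthest, and Hist1h1d lies farthest to the left.

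H2afj, at chr6:136808248-136810074, rose from 42.7 and 45.7 TPM with DMSO to 159 and 169 TPM (log2 fold change 1.89 ± 0.06, limma adjusted p = 5.1e-06). H3f3a rose from 292 and 297 TPM to 380 and 380 TPM (0.37 ± 0.03, adjusted p = 0.00020), and H3f3a-ps2 (0.46) and H3f3a-ps1 (0.61), which can hold its reads, rose with it. H3f3b fell from 472 and 454 TPM to 201 and 200 TPM (-1.20 ± 0.04, adjusted p = 5.4e-06), close to the median response, and was at -0.07 after scaling. The ratio of H3f3b to H3f3a thereby went from 1.62 and 1.53 to 0.529 and 0.527, so that the order of these genes turned over.

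H2afy2 fell from 74.9 and 77.6 TPM to 23.2 and 22.6 TPM (-1.73 ± 0.04, adjusted p = 3.9e-06), and it was still lower after scaling (-0.59). Smaller falls on the TPM scale were those of H2afx (-0.41), H2afy (-0.36) and H2afz (-0.24), all of which turned positive after scaling, at 0.73, 0.77 and 0.90. H2afv, at 75.6 and 75.9 TPM with DMSO and 75.7 and 77.1 TPM with the inhibitor, differed by 0.01 ± 0.04 and was not called, and neither was H3f3c (0.13).

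Counts by class, here and in the next paragraph, are small and stand beside 73.1% of all genes lower and 15.8% higher. All 3 H1 genes tested fell: Hist1h1d from 3.67 and 3.25 TPM to 0.540 and 0.317 TPM (-2.78 ± 0.25, limma adjusted p = 0.00022), Hist1h1e (-1.50) and Hist1h1c (-0.31). After scaling Hist1h1e was at -0.36 and no longer called, and Hist1h1c was at 0.83. Of 9 H4 genes none fell and 3 rose, namely Hist1h4i from 10.6 and 9.20 TPM to 19.2 and 18.2 TPM (0.92 ± 0.08, adjusted p = 0.00026), Hist1h4f by 0.92 and Hist1h4h by 0.61. The rise of Hist1h4h was not called without the first DMSO library (0.33) or without either pladienolide B library (0.57 and 0.65). Of 5 H3 genes 1 fell, Hist2h3c1 (-1.25, and -0.12 and not called after scaling), and none rose. Levels of Hist genes other than Hist1h2bc and Hist1h1c were at most 19.2 TPM in these libraries.

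Of 5 H2B genes 3 fell, Hist1h2bh (-1.54), Hist1h2be (-0.89, and 0.24 and not called after scaling) and Hist1h2bg (-0.70, but called higher at 0.43 after scaling), and 2 rose, Hist2h2be (0.99) and Hist1h2bc from 127 and 131 TPM to 148 and 154 TPM (0.23 ± 0.04, adjusted p = 0.0039). Of 8 H2A genes 3 fell, among them Hist3h2a (-0.27, not called without either DMSO library and at 0.87 after scaling), and 1 rose, Hist2h2ac by 0.57. Hist2h2aa2 (-0.02), Hist2h3c2 (-0.08) and Hist1h4k (0.09) were not called. The summed Hist TPM was 515 and 501 with DMSO and 479 and 473 with the inhibitor.

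Of 14 tested genes of histone mRNA processing and transcription, 12 were lower and none higher, led by Slbp, from a mean of 44.5 to 2.56 TPM (-4.07 ± 0.06, adjusted p = 3.4e-06), Lsm11, a part of the U7 particle that trims histone mRNA (-3.48), and Casp8ap2 (-2.69). Of 16 chaperones 13 were lower, led by Chaf1a (-3.58), Asf1a (-2.73) and Hira (-1.89), and 1, the H3.3 chaperone Daxx, was higher (0.61). Of the 20 S phase and mitosis genes 18 were lower, led by Mki67 (-2.81), Ccne2 (-2.69) and Cdk2 (-2.28), and Pcna was higher (0.15). The other histone genes Cenpa (-1.36), H1f0 (-1.01) and H1fx (-0.37) were all lower. After scaling, the median was -0.44 for the processing list, with 4 of 14 genes above the median of all genes. It was -0.09 for the chaperones, with 8 of 16 above, and 0.53 for the S phase list, with 12 of 20 above. These lists were lower on the TPM scale alongside 73.1% of all genes, and the part of cell cycle stage in the histone values was not tested.

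Retention of a single member intron could be followed, that of H3f3b between exons on the minus strand, chr11:116023779-116023881, 103 bp long. With DMSO its retention level (the share of transcripts that keep the intron, from 0 to 1) was 0.016 and 0.014, from 521 and 480 reads for retention and 18593 and 20505 for splicing, and with pladienolide B it was 0.290 and 0.310, from 2364 and 3019 against 3436 and 3985 reads. The difference was 0.285 (quasi-binomial model with moderated dispersion, adjusted p = 2.1e-10), with no overlap between the groups. Of 1802 introns tested, 38% were called and 35.1% were called with more retention, and 19.9% had a larger difference than the H3f3b intron. The tables list no row for any Hist gene.

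**Figure D4:**
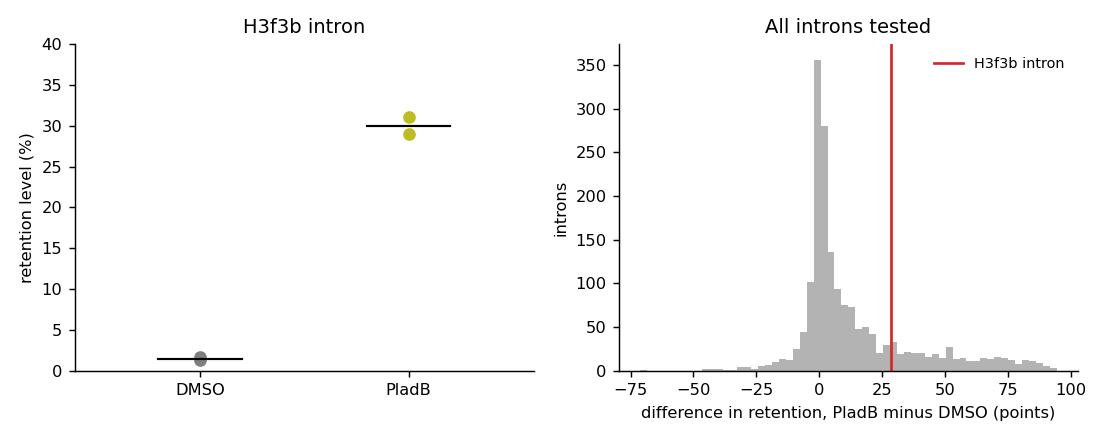
Left, retention level in percent of the H3f3b intron in each fibroblast library (points; lines are means of 2). Right, distribution of the difference in retention over all 1802 introns tested, with the H3f3b intron marked in red in the right-hand tail.

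No member exon was called for skipping after pladienolide B. Of 25 exon events tested, all in H2afv, H2afy, H2afy2, H2afz, H3f3a and H3f3b, 0 passed the quasi-binomial test and a change of 0.1 in the inclusion level (PSI, the share of transcripts that include an exon), and 5 had an unadjusted p under 0.05. Over all 54535 events 7.23% were called, 7.12% with lower inclusion. In 22 of the 25 the exon was included at 0.95 or more in all 4 libraries, and the differences ran from -0.016 to 0.007. A pair of the others were alternative forms of 57 and 97 bp of an H3f3a exon starting at chr1:180812690, used at under 0.05 in every library. These forms share their skipping reads, so their tests are not separate. The last was a 114 bp exon of H2afv, chr11:6433724-6433837, at 0.914 with pladienolide B and 0.930 with DMSO.

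Among the 7 tissues the same was found for single exons: 0 of 12 member events were called by the quasi-binomial test with a range of 0.1, 3 had an unadjusted p under 0.05, and 9.48% of 47963 events were called. The H2afv exon had the widest range of means, from 0.914 in heart to 0.963 in lung.

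Single exon events hide the main splicing choice of H2afy, since its mutually exclusive exons are each scored against skipping of both. This choice makes the macroH2A1.1 and macroH2A1.2 forms, which differ in a part of the macro domain. The exons, of 91 bp (chr13:56088252-56088342) and 100 bp (chr13:56089758-56089857), share both flanking exons, chr13:56084196-56084285 and chr13:56096124-56096234, so their inclusion reads, divided by effective length, give the share of each. Skipping of both had at most 38 reads in any library. The same share was computed for every pair of non-overlapping exons with common flanking exons and tested over all such pairs, an analysis that was added after the tables had been seen.

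The share of the 91 bp exon was 93.2 and 90.4% in heart, 68.6 and 65.9% in lung, 45.0 and 43.2% in kidney, 28.2 and 24.5% in cortex, 24.3 and 20.1% in spleen, and 4.25 and 3.68% in ESC. Libraries of neighbouring tissues in this order did not overlap, but the lower cortex value and the higher spleen value differed by less than the replicates of either tissue. The pair was not listed for liver. The range of 0.879 (as a share) between heart and ESC was called by the quasi-binomial test (adjusted p = 3.2e-12), as were 20.4% of 2418 exon pairs, and 14 pairs had a larger range.

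In fibroblasts the share was 86.8 and 86.5% with DMSO and 85.5 and 84.2% with pladienolide B. The difference of -0.0178 (as a share) was not called (adjusted p = 0.26), against 11.4% of 6678 pairs called. Heart and ESC thus had opposite exon use at H2afy levels of 13.0 and 13.8 TPM and 36.9 and 41.5 TPM.

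**Figure D5:**
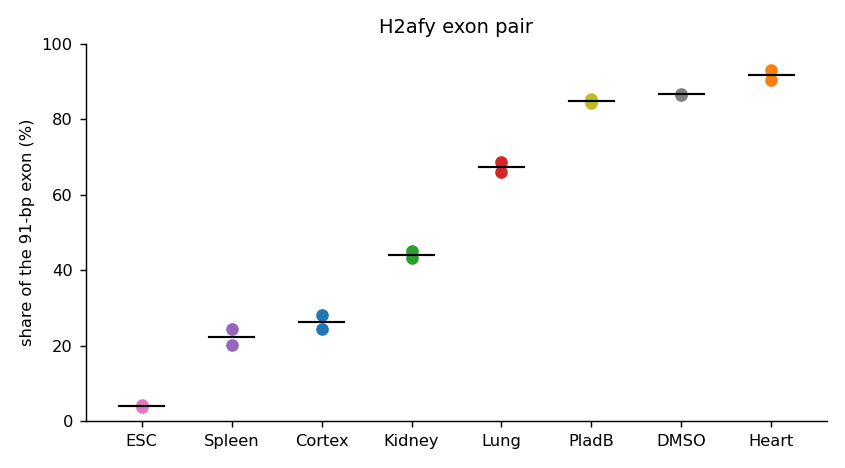
Share of the 91 bp exon, in percent, among reads of the H2afy exon pair in each library (points; lines are means of 2), ordered by mean. ESC lies near 4%, spleen and cortex between 20.1 and 28.2%, and heart above 90%.

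No member exon was called as differing between the parental alleles. Over the 9 groups, 53 tests of member exons that had 20 or more allele-specific reads per library gave 0 calls by the quasi-binomial test. Of the 211390 tests over all exons 1.51% were called. Among the 53 tests, 8 had an unadjusted p under 0.05. The share of all exon tests under that value was not computed, here or for the exon tests above. Nor are the 53 tests all separate, since the 57 and 97 bp forms of the H3f3a exon share skipping reads. For the 114 bp exon of H2afv, inclusion on the C57BL/6J allele minus that on the SPRET/EiJ allele was -0.069 in ESC, -0.067 in liver, -0.054 in heart, -0.038 in kidney, -0.035 in spleen, -0.030 in lung and 0.00027 in cortex, and -0.012 and -0.011 in fibroblasts with DMSO and pladienolide B. None of these passed the adjusted threshold. The largest single difference, -0.141 for a 61 bp exon of H2afz in ESC, came from 1 of the 2 clones, with values of 0.718 and 1 on the C57BL/6J allele and 1 and 1 on the SPRET/EiJ allele.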

How the data were processed

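Libraries were prepared and processed by the authors, who trimmed reads to a common length for tissues. The paper gives longer reads before trimming for heart, kidney and cortex than for spleen, lung and ESC. Read length before trimming therefore cannot be told apart from tissue. The authors aligned reads with HISAT2 2.0.1 to mm10 and to a SPRET/EiJ genome, keeping up to 2 alignments per read. They counted exon and intron events with rMATS. The deposited expression values are TPM per gene, made for tissues from featureCounts fragments counted by strand over exons, with a fragment over several genes split among them. The deposited event tables hold junction read counts and effective lengths, a score of positions, from which PSI was computed. The tables' own p-values and differences were not used.

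Members and gene lists were chosen with earlier results of these data known. Genes with a mean of at least 1 TPM in the libraries compared were tested on log2(TPM + 0.1), so that fold changes of low genes are understated, with limma 3.58.1 in R 4.3.3 (moderated, with a mean trend), and called at a Benjamini-Hochberg adjusted p under 0.05 over all genes. Events with at least 20 reads in each library were tested with a quasi-binomial model whose dispersion was moderated toward a depth trend, and called at an adjusted p under 0.05 and a difference of 0.1. Both tests were checked on simulated data. Of the TPM calls there, 2.74% were false for pladienolide B, 9.56% for ESC, 6.54% for spleen and 6.85% among organs. The values for ESC, spleen and organs exceed the threshold of 0.05. Named were all H2af and H3f3 members that passed the filter, the 10 Hist members with the highest mean, up to 6 Hist members per direction and comparison, all called events, both H2afy exons, and up to 3 genes per list and direction; the H2afv, H3f3a and H2afz exons, H2afb1 and its undetected relatives, Mki67, Top2a and Pcna as examples, and the other 2 H1 genes were named after their values were seen. Alternatives were another pseudocount, no filter, median scaling, other read minimums, another prior, a replicate block, a joint fit, and leaving out libraries. TPM keep no depth, and the paper reports fewer sequenced reads for both ESC samples than for the organs sequenced with them. No sequence is shown because none was in the sources used here.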

Additional observations from a re-analysis of the deposited data

How the results depend on the processing

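Without the filter on low values, 53 members were called between ESC and organs, 58 between spleen and the other organs and 66 among organs. These counts do not separate higher from lower. The share of all genes called in the same fits is not given beside them, so they say little about histones. Median scaling turned the sign of 13 of 78 named fold changes. For pladienolide B they were H2afy (0.77), Hist1h1c (0.83), H2afz (0.90), Hist1h2be (0.24), H2afx (0.73), Hist1h2bg (0.43), Hist2h2aa2 (1.12), Hist3h2a (0.87) and Hist2h3c2 (1.06), for ESC H2afy (-0.0566), H2afj (-0.18) and Hist1h4k (-0.20), and for spleen Hist1h4k (-0.14). A further 10 lost their call. Leaving out libraries turned only fold changes that had not been called. For pladienolide B the values ran from -0.417 to 0.68 for H3f3c, -0.0673 to 0.24 for Hist1h4k, -0.189 to 0.034 for Hist2h3c2, -0.00049 to 0.0259 for H2afv and -0.0757 to 0.0338 for Hist2h2aa2, for ESC from -0.0758 to 0.755 for H2afj and -0.11 to 0.751 for Hist1h4k, and for spleen from -0.208 to 0.148 for Hist3h2a. In all, 25 calls of 10 named members were lost over 816 such fits. Counts of called members stayed between 25 and 25 for pladienolide B, 28 and 30 for ESC, 21 and 28 for spleen and 30 and 33 among organs. The spleen result for Hist1h1c lost its call in 9 of these fits. The number of member exons differing between alleles by 0.1, with no test, was 0 and 1. A pseudocount of 1 took the fold change of Hist1h1d from -2.78 to -1.65. Self-tests recovered 73.6% (pladienolide B), 70.3% (ESC) and 61.3% (spleen) of simulated log2 fold changes of 1. The cause of these shifts was not tested.

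Organ libraries share animals, but nothing says that a replicate number marks an animal. Correlations of replicate differences between organs were all positive, from 0.0368 to 0.212, with 7 of 15 over 0.1, and that of DMSO with PladB was -0.0123, so the pairing could not be settled. With a replicate block, 28 members were called for pladienolide B, 29 for ESC, 27 for spleen and 32 among organs, the exon tests gave 0, and the H3f3b intron (adjusted p = 0.012) and the H2afy pair range (87.9 points) kept their calls, and no call of the 79 named values changed.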
